A study of Mus musculus with 18 samples.

Results

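Camk2a stood apart from the other calmodulin, CaMKII and calcineurin genes in how its RNA was divided between poly(A) tail fractions of mouse forebrain. On the values as deposited, all 6 of its probe sets were brighter in the long-tail than in the short-tail fraction in all 6 animals. Camk2d 1459457_PM_at and Ppp3r1 1421786_PM_at were also brighter there in all animals. Of the 19 tested probe sets of the other genes, 15 were called dimmer there (limma adjusted p under 0.05), as were 46.4% of all tested probe sets. All 6 of Camk2a were called brighter, as were 26.6% of all. These 6 share a gene and the same arrays and are not independent. The genes are Camk2a, Camk2b, Camk2d and Camk2g, Calm2 and Calm3, and Ppp3ca, Ppp3cb and Ppp3r1. They were chosen by name, Camk2a being a known target of CPEB proteins, but with earlier results of these data known. Every probe set annotated to 1 of these 9 genes alone was taken, which gave 29 of the 28898 probe sets with a single gene symbol, for 9 of 17097 genes. Of the 29, 25 passed a filter that left out the dimmest 25% of probe sets (mean log2 value under 5.35 over the 18 arrays), and they were tested among 21673 probe sets. The other 4 belonged to Calm3 (2 probe sets), Camk2d and Ppp3cb, and their means of 3.92 to 4.69 lay under the highest mean of the nonspecific control probe sets, 5.61.

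The mice were CPEB4 KO, CPEB4 GT/+ (written KOGT/+ in the design text) or WT, with 2 animals per genotype, all aged 6 weeks, and cortex and striatum were taken as a single tissue. Each animal gave 3 arrays. ELUTED is RNA released from poly(U) agarose with 90% formamide and is enriched for long tails, WASH is RNA released with 25% formamide and is enriched for short tails, and INPUT is the total RNA before this separation. The labels do not spell out GT, and they give neither the cells nor the stage in which CPEB4 is missing. The values are log2 intensities made with RMA, per the submitters' processing notes. The log2 ELUTED minus the log2 WASH value of 1 animal is called the ELUTED over WASH ratio here. It places a probe set relative to the others on the same arrays and is not a tail length.

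Calcium entering a neuron binds calmodulin, a small protein that several genes encode with the same amino acid sequence. Calcium-bound calmodulin activates CaMKII, a kinase assembled from alpha, beta, delta and gamma subunits that is abundant at excitatory synapses and needed for long-term potentiation, and calcineurin, a phosphatase with catalytic A subunits and the regulatory subunit calcineurin B that acts in long-term depression. CPEB proteins bind elements in the untranslated end of an mRNA and regulate the length of its poly(A) tail and its translation, and Camk2a mRNA, which is carried into dendrites, is a classical example of such an mRNA.

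Cpeb4 itself, by its probe set 1449931_PM_at, had log2 INPUT values of 6.55 and 6.92 in CPEB4 KO, 7.38 and 7.13 in CPEB4 GT/+ and 8.30 and 8.33 in WT animals. The KO values were the lowest and lay above the highest nonspecific control mean. The KO minus WT difference was -1.58 ± 0.14 (SE, n = 2 each, limma adjusted p = 0.0255). KO was also lowest by the other Cpeb4 probe sets, neither of which was called. By 1420618_PM_at the INPUT values were 6.62 and 6.91 in KO, 7.31 and 7.002 in GT/+ and 8.15 and 7.62 in WT (adjusted p = 0.205), and by 1420617_PM_at they were 4.88 and 5.15 in KO, under the highest nonspecific control mean, 5.52 and 5.50 in GT/+ and 5.94 and 6.01 in WT (adjusted p = 0.0639). The correlation between the 2 arrays of a group was 0.966 for ELUTED of CPEB4 GT/+, and 0.982 to 0.994 for the other groups. All 6 cortical excitatory and all 5 striatal projection neuron markers on the array were above the nonspecific controls by their mean over all arrays. So were all 5 GABA interneuron, 6 astrocyte, 5 oligodendrocyte, 5 microglia and 4 endothelial markers, against 1 of 3 muscle and heart markers. The 3' minus 5' log2 difference of Actb, a measure of RNA integrity, ran from -0.47 to -0.31 on ELUTED arrays, from -0.21 to -0.06 on WASH arrays and from -0.48 to -0.41 on INPUT arrays, and its part in the fraction results was not tested.

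Over the 3 genotypes, 8 of the 25 probe sets were higher in ELUTED than in WASH at an adjusted p under 0.05, where 26.6% of all tested probe sets were. A further 15 were lower, where 46.4% of all were, and 2 were not called. Their median ratio was -0.27, and that of all tested probe sets was -0.15. The zero of this scale depends on how the arrays are aligned: the median of all tested probe sets was -0.27 with arrays centred on the medians of their non-control probe sets, -0.64 with alignment on the hybridisation controls, -0.06 after a further quantile normalization and 0.14 with arrays centred on the median of the tested probe sets. A ratio is therefore best read against -0.15, and against the median at its own signal, which is given further below. Of the 25 mean ratios, 12 changed sign under at least 1 of these settings, 2 of them under 2, and of the 23 called ones 15 lost their call or changed sign under at least 1 alternative, with single animals left out included. Each of these is named where it is described.

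**Figure D1:**
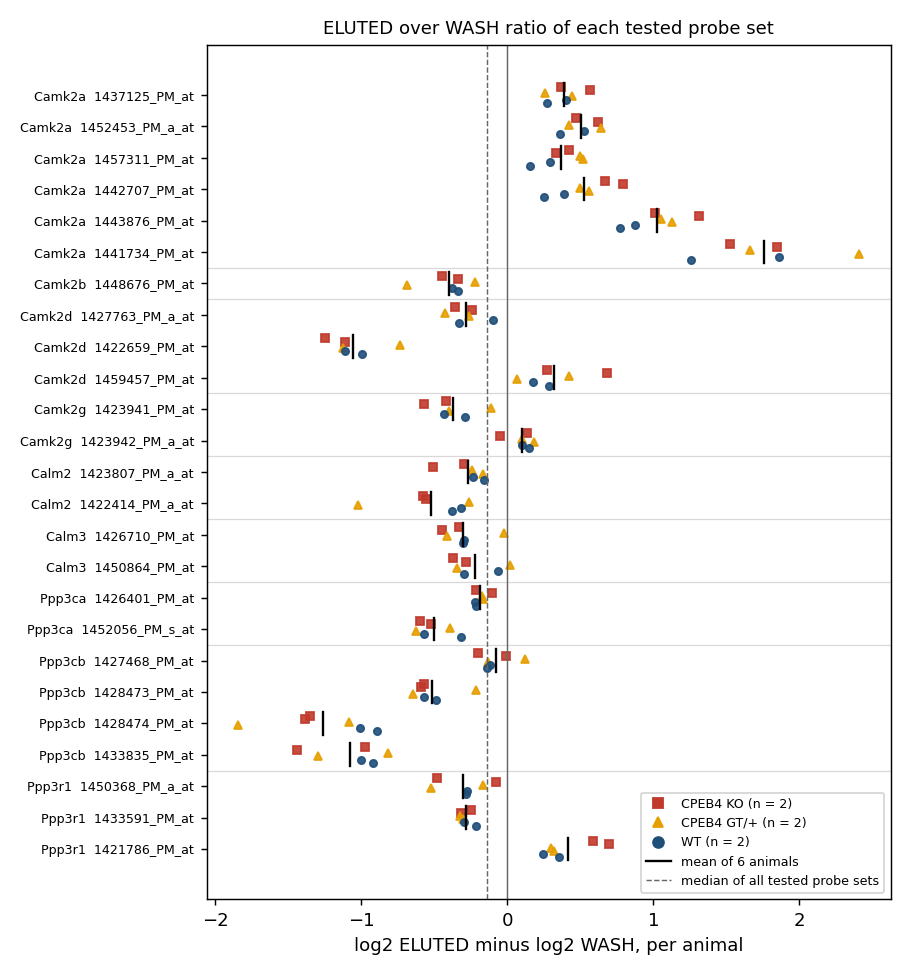
ELUTED over WASH ratio (log2) of the 25 tested probe sets, by gene, with 1 point per animal (CPEB4 KO red squares, CPEB4 GT/+ orange triangles, WT blue circles, n = 2 each), the mean of the 6 animals as a black bar and the median of all tested probe sets as a dashed line. The 6 Camk2a probe sets lie right of 0 in every animal, with means of 0.37 to 1.76, although 2 of them (1437125_PM_at and 1457311_PM_at) have means of -0.11 and -0.12 when the arrays are aligned on the hybridisation controls.

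Camk2a encodes the alpha subunit of CaMKII. Its brightest probe set, 1437125_PM_at, had log2 ELUTED values of 12.65 and 12.69 in CPEB4 KO, 12.50 and 12.57 in CPEB4 GT/+ and 12.46 and 12.50 in WT animals, against WASH values of 12.29 and 12.12, 12.24 and 12.12, and 12.06 and 12.23 in the same animals. Every ELUTED value was above every WASH value. The mean ratio was 0.38 ± 0.07 (SE, n = 6 animals, adjusted p = 0.00164). The INPUT values of this probe set, 12.41 and 12.41 in KO, 12.33 and 12.32 in GT/+ and 12.25 and 12.38 in WT, lay below the ELUTED value of the same animal in each case and above its WASH value.

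The other 5 Camk2a probe sets had the same direction in 6 of 6 animals. The ratio of 1452453_PM_a_at was 0.47 and 0.62 in KO, 0.42 and 0.64 in GT/+ and 0.52 and 0.36 in WT animals (mean 0.51 ± 0.07 SE, adjusted p = 0.000391). The ratio of 1457311_PM_at was 0.42 and 0.33 in KO, 0.49 and 0.52 in GT/+ and 0.29 and 0.15 in WT animals (mean 0.37 ± 0.07 SE, adjusted p = 0.00147). The ratio of 1442707_PM_at was 0.67 and 0.79 in KO, 0.50 and 0.56 in GT/+ and 0.39 and 0.25 in WT animals (mean 0.53 ± 0.07 SE, adjusted p = 0.000235). In the last of these the genotypes did not overlap, a point taken up under genotype.

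The 2 dimmer Camk2a probe sets gave the largest ratios of the 25 as measured, 1 of them over a WASH signal that was in part not above background. For 1443876_PM_at the ratio was 1.01 and 1.31 in KO, 1.06 and 1.13 in GT/+ and 0.87 and 0.77 in WT animals, with a mean of 1.03 ± 0.07 (SE, adjusted p = 2.82e-05), a 2.04-fold difference. For 1441734_PM_at it was 1.53 and 1.85 in KO, 1.66 and 2.41 in GT/+ and 1.86 and 1.26 in WT animals, with a mean of 1.76 ± 0.12 (SE, adjusted p = 2.48e-05). Its WASH values were 5.30 to 5.90, and 3 of the 6 (both of GT/+ and 1 of WT) lay under the highest nonspecific control mean of 5.61, so the size of that ratio and its place in the order are not firm. With alignment on the hybridisation controls, the 2 dimmer probe sets were still called higher (0.54 and 1.27), 1442707_PM_at and 1452453_PM_a_at fell to 0.04 and 0.02 without a call, and 1437125_PM_at and 1457311_PM_at were at -0.11 and -0.12, where the median of all probe sets was -0.64. Under the other alignments and normalizations tried, and without any single animal, all 6 were called higher.

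Camk2b, Camk2d and Camk2g encode the beta, delta and gamma subunits, and 4 of their 6 tested probe sets were lower in ELUTED than in WASH. The single Camk2b probe set, 1448676_PM_at, had ratios of -0.45 and -0.34 in KO, -0.22 and -0.69 in GT/+ and -0.38 and -0.34 in WT animals. All 6 were below 0, and the 2 CPEB4 GT/+ animals spanned the whole range. The mean was -0.40 ± 0.08 (SE, adjusted p = 0.00239), and it was no longer called with the arrays centred on the median of the tested probe sets (-0.12, adjusted p = 0.196).

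The probe sets of Camk2d differed from each other in direction. Its brightest, 1427763_PM_a_at, was lower in ELUTED by a mean of -0.29 ± 0.07 (SE, adjusted p = 0.00776, below 0 in 6 of 6 animals), but was 0.025 after quantile normalization and -0.003 with arrays centred on the tested probe sets, and it was not called without WT replicate 2 (adjusted p = 0.0647). A dimmer one, 1422659_PM_at, had ratios of -1.25 and -1.11 in KO, -0.73 and -1.12 in GT/+ and -1.11 and -0.998 in WT animals (mean -1.05 ± 0.08 SE, adjusted p = 3.07e-05). The dimmest, 1459457_PM_at, was higher in ELUTED in 6 of 6 animals, with ratios of 0.27 and 0.68 in KO, 0.42 and 0.07 in GT/+ and 0.17 and 0.28 in WT animals. Its mean was 0.32 ± 0.09 (SE, adjusted p = 0.0102), but it was -0.17 with alignment on the hybridisation controls, and it was not called with each array centred on its median (0.20, adjusted p = 0.076), without WT replicate 2 (adjusted p = 0.0529) or without CPEB4 KO replicate 2 (adjusted p = 0.0644). The 3 probe sets of this gene thus disagreed on the fraction in which its RNA was brighter.

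Of the 2 Camk2g probe sets, 1 was called. The brighter, 1423941_PM_at, was lower in ELUTED in 6 of 6 animals, from -0.57 in a KO animal to -0.11 in a GT/+ animal (mean -0.37 ± 0.08 SE, adjusted p = 0.00230). It was not called after quantile normalization (-0.11, adjusted p = 0.162) or with arrays centred on the tested probe sets (-0.089, adjusted p = 0.285). The dimmer probe set, 1423942_PM_a_at, was above 0 in 5 of 6 animals with a mean of 0.10 ± 0.07 (SE, adjusted p = 0.214). That small value took either sign with the alignment: it was -0.02 after centring each array on its median, -0.39 with the hybridisation controls, and called higher after quantile normalization (0.42) and with arrays centred on the tested probe sets (0.38).

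On the values as deposited, all 4 tested calmodulin probe sets were lower in ELUTED, and 3 of the calls were lost under some alternative. Calm2 by 1423807_PM_a_at had log2 ELUTED values of 12.41 and 12.30 in CPEB4 KO, 12.58 and 12.46 in CPEB4 GT/+ and 12.52 and 12.58 in WT animals, against WASH values of 12.71 and 12.80, 12.83 and 12.63, and 12.76 and 12.74. Every ELUTED value was below every WASH value. The mean ratio was -0.27 ± 0.07 (SE, adjusted p = 0.00861), and the second Calm2 probe set, 1422414_PM_a_at, had a mean of -0.52 ± 0.10 (SE, adjusted p = 0.00183). Calm3 had means of -0.30 ± 0.08 (SE, 1426710_PM_at, adjusted p = 0.00791) and -0.22 ± 0.08 (SE, 1450864_PM_at, adjusted p = 0.0327). With arrays centred on the median of the tested probe sets, Calm2 1423807_PM_a_at was at 0.01, Calm3 1426710_PM_at at -0.02 (adjusted p = 0.819) and Calm3 1450864_PM_at at 0.06. After quantile normalization neither Calm3 probe set was called (1426710_PM_at at -0.15, adjusted p = 0.075, and 1450864_PM_at at -0.029, adjusted p = 0.726). Calm3 1450864_PM_at also lost its call without 5 of the 6 animals in turn (adjusted p of 0.0655 to 0.167), and Calm2 1423807_PM_a_at without WT replicate 1 (adjusted p = 0.0597) or without CPEB4 KO replicate 2 (adjusted p = 0.0546).

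Of the 9 tested calcineurin probe sets, 7 were lower in ELUTED, 1 was higher and 1 was not called. Ppp3ca, the alpha isoform of the catalytic subunit, had mean ratios of -0.18 ± 0.07 (SE, 1426401_PM_at, adjusted p = 0.0368) and -0.50 ± 0.08 (SE, 1452056_PM_s_at, adjusted p = 0.000445), each below 0 in 6 of 6 animals. The first of these was 0.10 with arrays centred on the median of the tested probe sets, and it was not called after quantile normalization (-0.072, adjusted p = 0.352) or without any 1 of the WT and KO animals (adjusted p of 0.0816 to 0.148). The second carries the suffix of probe sets that can match more than 1 transcript, so part of its signal may come from another one.

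Ppp3cb, the beta isoform, held the lowest ratios of the 25. Its probe set 1428474_PM_at had ratios of -1.35 and -1.39 in KO, -1.08 and -1.85 in GT/+ and -1.01 and -0.89 in WT animals (mean -1.26 ± 0.10 SE, adjusted p = 3.61e-05). Its probe set 1433835_PM_at had ratios of -0.97 and -1.44 in KO, -0.82 and -1.30 in GT/+ and -1.005 and -0.919 in WT animals (mean -1.08 ± 0.10 SE, adjusted p = 4.48e-05). Both are among the dimmer probe sets, with mean log2 values of 6.88 and 6.33. For 1433835_PM_at, 1 of the 6 ELUTED values (5.60 to 6.24) lay under the highest nonspecific control mean of 5.61. The size of its ratio and its place in the order are therefore not firm. The 2 brighter Ppp3cb probe sets had ratios nearer to 0: -0.51 ± 0.08 for 1428473_PM_at (SE, adjusted p = 0.000543) and -0.08 ± 0.07 for 1427468_PM_at (SE, adjusted p = 0.355). The last of these turned to 0.14 after quantile normalization and to 0.20 with arrays centred on the tested probe sets.

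Ppp3r1, which encodes calcineurin B, had 2 probe sets near log2 9.4 that were lower in ELUTED, by -0.30 ± 0.09 (SE, 1450368_PM_a_at, adjusted p = 0.0119) and -0.28 ± 0.07 (SE, 1433591_PM_at, adjusted p = 0.00530), and both were at or just above 0 after quantile normalization (0.004 and 0.01) and just below it with arrays centred on the tested probe sets (-0.02 and -0.001). The first also lost its call without WT replicate 1, WT replicate 2 or CPEB4 KO replicate 1 (adjusted p of 0.0509 to 0.0697). Its dimmer probe set, 1421786_PM_at, was higher in ELUTED in all animals, at 0.59 and 0.69 in KO, 0.30 and 0.32 in GT/+ and 0.24 and 0.36 in WT. The mean was 0.42 ± 0.07 (SE, adjusted p = 0.000754), and it was -0.07 with alignment on the hybridisation controls. Besides Camk2a, Camk2d and Ppp3r1 were thus the genes with a probe set called higher, in each case 1 of 3 tested.

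**Figure D2:**
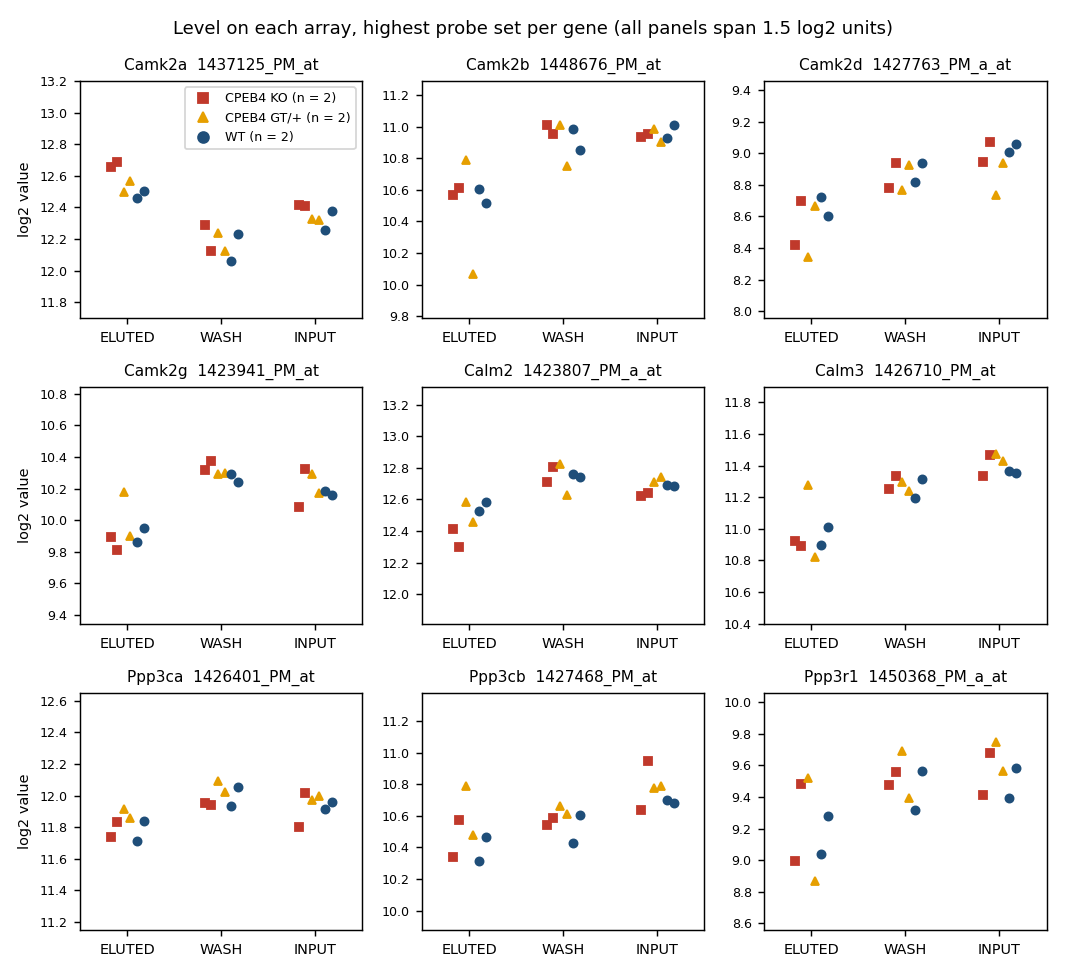
Log2 value on each of the 18 arrays for the brightest probe set of each gene, by fraction, with 1 point per animal (CPEB4 KO red squares, CPEB4 GT/+ orange triangles, WT blue circles, n = 2 each); every panel spans the same number of log2 units. Camk2a is above its WASH values in ELUTED in all 6 animals (mean ratio 0.38), though not with alignment on the hybridisation controls (-0.11), while the other 8 genes have mean ratios of -0.40 to -0.08 on the deposited values.

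A difference between 2 genes on the same pair of arrays does not depend on where the zero of the arrays lies. The ratio of Camk2a minus that of each other gene, by the brightest probe set of each, was above 0 in 6 of 6 animals for all 8 genes. It was largest against Camk2b, at 0.81 and 0.90 in KO, 0.48 and 1.13 in GT/+ and 0.78 and 0.61 in WT animals (mean 0.79 ± 0.23 SD). It was smallest against Ppp3cb, at 0.57 and 0.58 in KO, 0.13 and 0.58 in GT/+ and 0.52 and 0.41 in WT animals (mean 0.46 ± 0.17 SD). Against Ppp3ca it was 0.57 ± 0.09 and against Calm2 it was 0.65 ± 0.22 (SD, n = 6). The exact two-sided sign-flip permutation test gave p = 0.0312 for each of the 8 comparisons, 0.0312 after Benjamini-Hochberg adjustment over them, the smallest value 6 animals allow. The mean differences stayed above 0 after quantile normalization (0.27 to 0.64) and with INPUT in place of WASH (0.34 to 0.65). Camk2a and these 8 genes were compared because Camk2a was known to differ, so the p-values are not independent evidence.

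Ratios also vary with signal. With all tested probe sets in 10 equal bins of mean log2 value, the median ratio was 0.17 in the lowest bin, -0.39 in bin 8 and -0.21 in the highest, where 17.5% were called higher. Of the 25 probe sets, 14 lay in the highest bin. The 4 bright Camk2a probe sets, with mean log2 values of 10.73 to 12.36, all lay in it, and their mean ratios of 0.37 to 0.53 were above its upper quartile of 0.08. The calmodulin probe sets, also in the highest bin, had ratios of -0.52 to -0.22, all below its median. Not every probe set called lower was below the median of its bin. Ppp3r1 1450368_PM_a_at and 1433591_PM_at (-0.30 and -0.28) lay in bin 9, above its median of -0.35. Camk2d 1427763_PM_a_at (-0.29, bin 8) and Ppp3ca 1426401_PM_at (-0.18, highest bin) were also above the medians of their bins. The others called lower were below theirs. The standard deviation over probe sets was 1.78 to 1.90 on ELUTED arrays and 1.96 to 2.01 on WASH arrays, and its part in the dependence on signal was not tested.

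**Figure D3:**
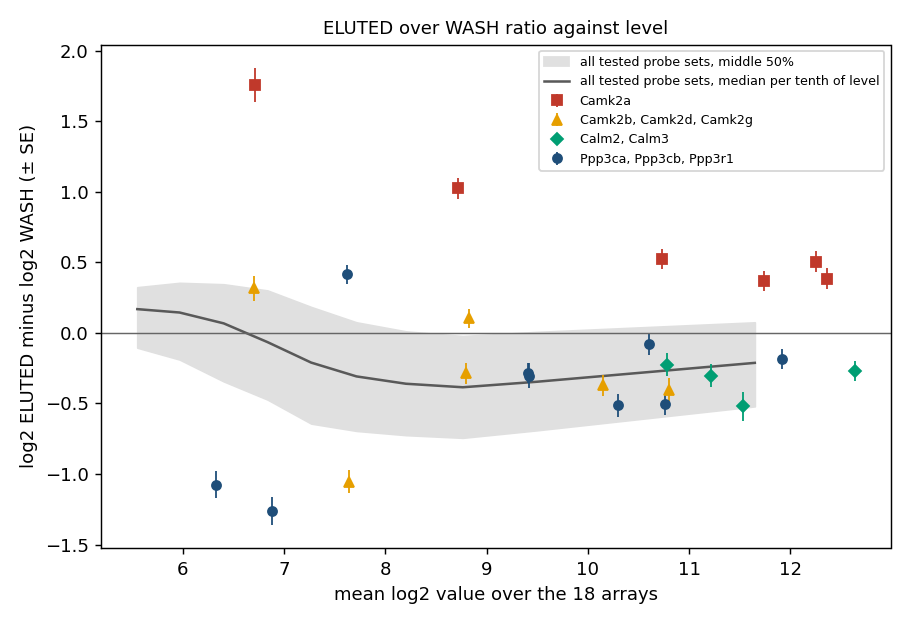
Mean ELUTED over WASH ratio (log2, ± SE) of the 25 tested probe sets against their mean log2 value over the 18 arrays, with the median (line) and the range between the quartiles (grey) of all 21673 tested probe sets in 10 equal bins of log2 value. Camk2a (red squares) lies above the grey band along its whole range, at 0.37 to 1.76 on the deposited values; 2 of its ratios are below 0 with alignment on the hybridisation controls, where the median of all probe sets is -0.64.

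Against INPUT, 6 of the 25 probe sets were higher in ELUTED (15.8% of all tested) and 13 were lower (28.9% of all), with a median of -0.21 against -0.04 for all. Camk2a held 5 of the 6 higher ones. Its 1443876_PM_at was above INPUT by 1.10 and 0.88 in KO, 0.85 and 0.87 in GT/+ and 0.61 and 0.63 in WT animals (mean 0.82 ± 0.07 SE, adjusted p = 0.000218), and its 1457311_PM_at by a mean of 0.45 ± 0.07 (SE, adjusted p = 0.00119). The other was Ppp3r1 1421786_PM_at, at 0.50 ± 0.07 (SE, adjusted p = 0.000837). With alignment on the hybridisation controls, the last 2 were not called (0.23 and 0.28). Among those lower than INPUT, Calm2 1422414_PM_a_at was at -0.61 ± 0.11, Calm3 1426710_PM_at at -0.43 ± 0.08 and Camk2b at -0.43 ± 0.09 (SE, adjusted p = 0.00322, 0.0031 and 0.00679). The count of 13 lower ones was 7 without WT replicate 1, 7 without WT replicate 2 and 8 without CPEB4 KO replicate 2.

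WASH minus INPUT gave the complementary view. Here 5 probe sets were higher (42.6% of all) and 7 were lower (21.5% of all), with a median of -0.06 against 0.09 for all. That balance turned with the alignment: 17 were higher and 1 lower with the hybridisation controls, 9 and 3 with each array centred on its median, and 14 were lower with arrays centred on the tested probe sets. Of the higher ones, 3 were of Ppp3cb: 1428474_PM_at at 1.09 ± 0.07, 1433835_PM_at at 0.69 ± 0.05 and 1428473_PM_at at 0.26 ± 0.05. The others were Camk2d 1422659_PM_at at 0.71 ± 0.05 and Ppp3r1 1433591_PM_at at 0.44 ± 0.06 (SE, adjusted p of 0.00178 or less for all 5). These 5 probe sets were thus brighter in the short-tail fraction than in total RNA in 6 of 6 animals. The brightest Ppp3cb probe set, 1427468_PM_at, was called lower, at -0.18 ± 0.06 (SE, adjusted p = 0.0215). Among the lower ones Camk2a 1441734_PM_at was at -0.98 and -0.92 in KO, -1.79 and -2.24 in GT/+ and -2.08 and -2.06 in WT animals, where 3 of its 6 WASH values were under the highest nonspecific control mean, so neither the size nor the order of the genotypes is firm. The count of 7 lower ones was 3 without WT replicate 1, without CPEB4 GT/+ replicate 2 or without CPEB4 KO replicate 2.

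In total RNA, none of the 25 probe sets was called between genotypes by limma. Over all probe sets 0.0277% were called in INPUT of KO against WT, 0.0% of GT/+ against WT and 0.00923% of KO against GT/+. At an unadjusted p under 0.05 there were 4 of the 25 for KO against WT, where 11.0% of all probe sets were, 0 for GT/+ against WT, where 3.44% were, and 2 for KO against GT/+, where 8.01% were. The 4 are the 2 dimmer Camk2a probe sets, Camk2d 1459457_PM_at and Ppp3r1 1421786_PM_at, and each had a lower KO mean. In whole tissue, fewer cells of a type and less RNA per cell cannot be told apart.

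Camk2a gave 2 different pictures in total RNA. Its 1443876_PM_at had log2 INPUT values of 8.17 and 8.23 in KO, 8.54 and 8.65 in GT/+ and 8.68 and 8.78 in WT animals. The 3 genotypes did not overlap, and KO was lowest. Among all tested probe sets, 18.5% had KO below WT without overlap, and the share with all 3 genotypes apart was not counted. The KO minus WT difference of 1443876_PM_at was -0.53 ± 0.10 (SE, 95% interval -0.76 to -0.30, adjusted p = 0.206). Its 1441734_PM_at had 6.88 and 6.64 in KO, 7.18 and 7.55 in GT/+ and 7.44 and 7.78 in WT animals, a KO minus WT difference of -0.85 ± 0.17 (SE, 95% interval -1.23 to -0.47, adjusted p = 0.223), which was called with alignment on the hybridisation controls (-0.71, adjusted p = 0.0311). The 4 bright Camk2a probe sets had KO minus WT differences of 0.02 to 0.15, the smallest of which was -0.04 with arrays centred on the tested probe sets. The brightest, 1437125_PM_at, had a difference of 0.10 with a 95% interval of -0.13 to 0.32.

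For the other genes the KO minus WT differences in total RNA ran from -0.29 for Ppp3r1 1421786_PM_at to 0.35 for Ppp3cb 1428474_PM_at. That Ppp3r1 probe set had 7.29 and 7.20 in KO, 7.37 and 7.60 in GT/+ and 7.46 and 7.62 in WT animals, and KO lay below WT without overlap. For Camk2b the values were 10.94 and 10.95 in KO, 10.99 and 10.90 in GT/+ and 10.92 and 11.01 in WT, a difference of -0.03 with a 95% interval of -0.25 to 0.20. For Calm2 1423807_PM_a_at the difference was -0.06 with an interval of -0.27 to 0.16, and for Ppp3ca 1426401_PM_at it was -0.03 with an interval of -0.27 to 0.22. In 6 probe sets both KO values were above both WT values, where 24.1% of all tested probe sets were so, and in 6 both were below, where 18.5% were. Neither count is far from the share among all probe sets. Marker lists were compared in INPUT too, where the median KO minus WT difference of all tested probe sets was 0.03. The list median was 0.33 for microglia (5 of 5 above 0), 0.24 for endothelial cells (4 of 4) and 0.13 for astrocytes (6 of 6). It was 0.11 for GABA interneurons (4 of 5), 0.09 for cortical excitatory (4 of 6) and 0.06 for striatal projection neurons (3 of 5). For oligodendrocytes it was 0.04 (3 of 5), and for muscle and heart -0.095 (0 of 2). No marker was called, and the part of these lists in the values above was not tested.

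**Figure D4:**
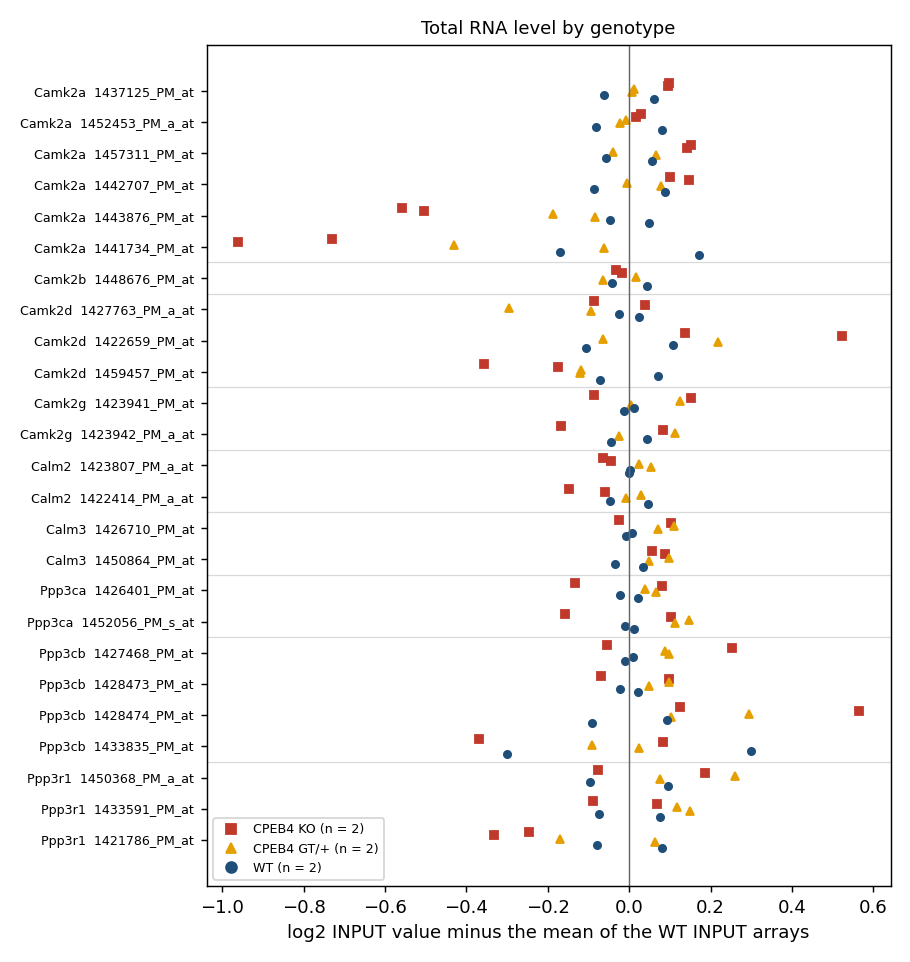
Log2 INPUT value of each tested probe set minus the mean of its WT animals, with 1 point per animal (CPEB4 KO red squares, CPEB4 GT/+ orange triangles, WT blue circles, n = 2 each). The 2 dimmer Camk2a probe sets, 1443876_PM_at and 1441734_PM_at, have KO animals below all others, with mean KO minus WT differences of -0.53 and -0.85, while the KO animals of the 4 bright ones average 0.02 to 0.15 above WT (the smallest at -0.04 with arrays centred on the tested probe sets); none was called at an adjusted p under 0.05.

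The ELUTED over WASH ratio did not pass the test between genotypes for any of the 25 probe sets, nor for any of the 21673 probe sets (0.0% for KO against WT, 0.0% for GT/+ against WT and 0.0% for KO against GT/+). At an unadjusted p under 0.05 there was 1 of 25 for KO against WT, where 6.35% of all were, 0 for GT/+ against WT, where 1.08% were, and 0 for KO against GT/+, where 2.2% were. That probe set was Camk2a 1442707_PM_at, whose ratios per animal are given above. On the deposited values the KO animals were highest, GT/+ intermediate and WT lowest, with no overlap. The share of all tested probe sets with such an order was not counted. The mean KO minus GT/+ difference of 1442707_PM_at was 0.2, but -0.02 with alignment on the hybridisation controls, so the order of KO and GT/+ is not firm. Its KO minus WT difference was 0.41 ± 0.17 (SE, 95% interval 0.02 to 0.80, adjusted p = 0.755), and 0.25 with that alignment.

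The KO minus WT difference in the ratio was above 0 for all 6 Camk2a probe sets, from 0.10 for 1452453_PM_a_at to 0.41. The 6 share a gene and the same arrays and are not independent, and 4 of them were at -0.06 to -0.009 once the arrays were aligned on the hybridisation controls. Without WT replicate 2 and without CPEB4 KO replicate 2, 1441734_PM_at was at -0.175 and -0.035. The interval for the brightest, 1437125_PM_at, was -0.28 to 0.54 around 0.13 (95%, n = 2 animals per genotype). The GT/+ minus WT differences of Camk2a ran from 0.02, which took either sign with the setting, to 0.48, and these share the WT animals with the KO comparison. The 0.48 is of 1441734_PM_at, whose WASH values in both GT/+ animals and 1 WT animal lay under the highest nonspecific control mean, so its size is not firm. For 1452453_PM_a_at the difference of 0.09 was -0.02 without CPEB4 GT/+ replicate 2.

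For the other genes, the KO minus WT difference in the ratio ran from -0.42 ± 0.25 for Ppp3cb 1428474_PM_at (SE, adjusted p = 0.758) to 0.34 ± 0.17 for Ppp3r1 1421786_PM_at (SE, adjusted p = 0.755). Both Calm2 probe sets had lower ratios in KO than in WT animals without overlap: 1423807_PM_a_at was at -0.30 and -0.51 in KO against -0.23 and -0.16 in WT, and 1422414_PM_a_at at -0.58 and -0.55 in KO against -0.32 and -0.38 in WT. The differences were -0.20 ± 0.17 and -0.22 ± 0.25 (SE, adjusted p = 0.802 and 0.843). Both KO ratios were above both WT ratios in 4 probe sets, where 21.5% of all tested probe sets were so, and below both in 6, where 29.2% were. The 4 are 3 of Camk2a and Ppp3r1 1421786_PM_at.

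Other genes of the pathway, each by its brightest probe set, were counted in 3 lists that were drawn up with results of these data known. By the brightest probe set of all 13325 genes tested, 25.9% were higher in ELUTED than in WASH and 47.4% were lower, with a median ratio of -0.16. Of 13 calmodulin-dependent kinases and CaMKII inhibitors tested, 1 was higher in ELUTED than in WASH, 7 were lower and 5 were not called, with a median ratio of -0.24. The higher one was Camk2n1, an inhibitor of CaMKII, at 0.19 ± 0.07 (SE, adjusted p = 0.0362), which was -0.30 with alignment on the hybridisation controls and lost its call with each array centred on its median (0.068, adjusted p = 0.387) and without any 1 of the KO and WT animals. Its relative Camk2n2 was at 0.04 ± 0.10 (SE, adjusted p = 0.721) and took either sign with the alignment and with single animals left out. Itpka, a kinase that phosphorylates inositol trisphosphate, was at -0.84 ± 0.10 and the calmodulin-dependent kinase Camk1 at -0.68 ± 0.09 (SE, adjusted p = 0.000145 and 0.00021). The other tested probe set of Camk2n1 was at -0.006 and that of Camk1 at -1.29.

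Of 13 genes that encode a further calcineurin subunit, calcineurin regulators or calcineurin targets, 6 were higher, 4 lower and 3 not called, with a median ratio of 0.08. Cabin1, a calcineurin-binding inhibitor, was at 0.78 ± 0.08 (SE, adjusted p = 7.75e-05), and was not called with alignment on the hybridisation controls (0.28, adjusted p = 0.0685). Nfatc4, a transcription factor that calcineurin dephosphorylates, was at 5.67 to 6.08 in ELUTED and 5.19 to 5.42 in WASH (log2 values), and all 6 WASH values lay under the highest nonspecific control mean, so no ratio is given for it although it is 1 of the 6 counted as higher. Ppia, the cyclophilin through which cyclosporin inhibits calcineurin, was at -0.76 ± 0.09 and the feedback inhibitor Rcan1 at -0.54 ± 0.09 (SE, adjusted p = 0.000176 and 0.000721). Other tested probe sets were at 0.18 and 0.75 for Cabin1 and at -0.22 for Rcan1.

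Of 14 calmodulin-binding proteins tested, 4 were higher, 7 lower and 3 not called, with a median ratio of -0.24. The calcium pump Atp2b2 was at 0.51 ± 0.08 and Nos1, neuronal nitric oxide synthase, at 0.41 ± 0.07 (SE, adjusted p = 0.000504 and 0.000793). With the hybridisation controls these were 0.02 and -0.08. Adcy8, a calmodulin-stimulated adenylyl cyclase, was at -0.74 ± 0.09 and Marcks, which binds calmodulin and the membrane, at -0.54 ± 0.10 (SE, adjusted p = 0.000129 and 0.00189). The 2 other tested probe sets of Marcks were at -0.98 and 0.008 and so differed from each other. Other tested probe sets were at 0.21 for Atp2b2 and 0.61 to 0.75 for Nos1. In none of the 3 lists was a gene called in any of the 6 genotype comparisons by limma.

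Among 13324 other genes, each by its brightest probe set, the pattern over the 18 arrays most like that of Camk2a 1437125_PM_at was that of Ppp1r16b, with a Pearson correlation of 0.956, followed by Arid1a (0.950), Bcl2 (0.948), Shc3 (0.946) and Hipk2 (0.942). These points share the 3 fractions, so the correlation mainly describes the order of ELUTED, INPUT and WASH. The ELUTED over WASH ratios of these 5 genes were 0.52 to 1.25. The other 8 calmodulin, CaMKII and calcineurin genes had correlations with Camk2a of -0.17 for Ppp3cb to -0.86 for Calm2.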

How the data were processed

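The deposited table held log2 values of 18 Affymetrix mouse arrays, which the authors made with RMA, per the submitters' processing notes; the version is not given in the sources used here. The series text names a PrimeView array, whereas the probe set names carry a PM mark. Amplification of 5 ng RNA took 21 cycles, and the labelling used 8 µg cDNA, per the labels. Of 45141 probe sets, 104 were controls and 28898 had 1 gene symbol in GEO's platform annotation, 551 had several and 15692 had none (controls included). Array medians were 6.32 to 6.48. With 2 animals per genotype, the number of arrays limits the precision: p-values measure the spread between these animals, and an exact test of 2 against 2 cannot go below 0.333.

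Probe sets with 1 symbol, less the lowest 25% by mean over the arrays, were fitted with limma 3.58.1 in R 4.3.3 (genotype means, eBayes without trend, 3 residual degrees of freedom) on INPUT values or on differences between fractions of the same animal, in 9 comparisons with Benjamini-Hochberg adjustment over 21673 probe sets and a threshold of 0.05. The scripts were tested on simulated data. All probe sets of the 9 genes were named. Other pathway genes were named where called between genotypes or among the 2 largest and 2 smallest ratios of their list, and the 5 genes most correlated with Camk2a were named. The genes and lists were chosen with earlier results of these data known. Alternatives were other alignments, normalizations, filters and probe set choices, a replicate block, eBayes with trend, and leaving out each animal. No sequence or genome position is printed.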

Additional observations from a re-analysis of the deposited data

Results flagged for a closer look

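In each of 75 groups of 6 animals (25 probe sets, 3 fraction ratios), the highest or lowest animal was compared with the rest by Dixon's test at its 95% critical value. An animal was past it in 5 groups, and chance gives about 1 group in 20. In the ELUTED over WASH ratio, CPEB4 GT/+ replicate 1 was at -0.022 for Calm3 1426710_PM_at (others -0.45 to -0.30) and at -0.22 for Ppp3cb 1428473_PM_at (others -0.65 to -0.49). Against INPUT, CPEB4 GT/+ replicate 2 was at -1.24 in ELUTED for Calm2 1422414_PM_a_at (others -0.66 to -0.33) and at 1.62 in WASH for Ppp3cb 1428474_PM_at (others 0.88 to 1.15). CPEB4 KO replicate 1 was at 0.93 in WASH for Ppp3cb 1433835_PM_at (others 0.59 to 0.70). Of the 5, 4 were CPEB4 GT/+ animals. The ELUTED arrays of CPEB4 GT/+ had the lowest correlation with each other, 0.966, but the value for Ppp3cb 1428474_PM_at uses no ELUTED array. A link between the correlation and these animals was not tested.

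In 2 probe sets KO and another genotype lay on opposite sides of 0 in ELUTED minus INPUT. The share of all tested probe sets for which this holds was not counted. That 0 moves with the alignment: the median of all tested probe sets was -0.04 on the deposited values and -0.26 with the hybridisation controls. Camk2a 1441734_PM_at was at 0.54 and 0.93 in KO, -0.14 and 0.17 in GT/+ and -0.22 and -0.80 in WT animals, a difference of 1.24 for KO minus WT (limma adjusted p = 0.311). Camk2d 1459457_PM_at was at 0.22 and 0.24 in KO, -0.16 and -0.06 in GT/+ and -0.29 and -0.16 in WT animals, a difference of 0.34 for KO minus GT/+ (limma adjusted p = 0.721) and of 0.46 for KO minus WT (limma adjusted p = 0.371).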

How the results depend on the processing

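The counts of called probe sets depended mostly on how the arrays were aligned. ELUTED over WASH, with 8 higher and 15 lower, gave 2 higher with the hybridisation controls, 8 lower after quantile normalization, 6 lower with arrays centred on the tested probe sets (added after seeing the data, as were the alternatives for Camk2a minus each gene), and 1 higher and 7 lower with only the brightest probe set per gene, which tests 9. ELUTED over INPUT, with 6 higher and 13 lower, gave 1 higher with the hybridisation controls, 7 lower after quantile normalization, 1 higher and 7 lower with the brightest probe sets, and 7 to 13 lower without single animals. WASH over INPUT, with 5 higher and 7 lower, gave 9 higher and 3 lower with arrays centred on all non-control probe sets, 17 and 1 with the hybridisation controls, 12 lower after quantile normalization, 14 lower with the tested probe sets, 0 and 3 with the brightest probe sets, and 3 to 7 lower without single animals. INPUT of KO against WT gave 1 call with the hybridisation controls, Camk2a 1441734_PM_at. Ratios that changed sign were, with the hybridisation controls, -0.11 and -0.12 (Camk2a 1437125_PM_at and 1457311_PM_at), -0.074 (Ppp3r1 1421786_PM_at), -0.17 (Camk2d 1459457_PM_at), -0.39 (Camk2g 1423942_PM_a_at), -0.45 (Camk2n2), -0.30 (Camk2n1) and -0.082 (Nos1). With each array centred on its median they were -0.016 (Camk2g 1423942_PM_a_at) and -0.076 (Camk2n2), and after quantile normalization 0.14 (Ppp3cb 1427468_PM_at), 0.025 (Camk2d 1427763_PM_a_at), 0.01 and 0.004 (Ppp3r1 1433591_PM_at and 1450368_PM_a_at). With arrays centred on the tested probe sets they were 0.014 (Calm2 1423807_PM_a_at), 0.10 (Ppp3ca 1426401_PM_at), 0.20 (Ppp3cb 1427468_PM_at) and 0.059 (Calm3 1450864_PM_at). Camk2n2 was between -0.057 and 0.142 without single animals. Without 1 animal, 17 of 150 ratios lost their call, in 6 probe sets (Calm2 1423807_PM_a_at, Calm3 1450864_PM_at, Camk2d 1427763_PM_a_at and 1459457_PM_at, Ppp3ca 1426401_PM_at and Ppp3r1 1450368_PM_a_at), with fewer animals in the fit. Camk2a minus each gene kept its direction in all 16 other settings and in all 48 with 1 animal left out, where 5 animals cannot give an exact p under 0.0625. Animals with the same replicate number deviated together in the ratio between KO and GT/+ (r = 0.48) but not in the other pairs of genotypes (-0.29 and -0.33) or in INPUT (-0.09 to -0.03), so the numbers are not taken as a pairing; with the replicate block, ELUTED over WASH gave 8 higher and 14 lower, ELUTED over INPUT 6 and 12, WASH over INPUT 5 and 6, and the genotype comparisons 0, and Ppp3ca 1426401_PM_at and Camk2n1 had adjusted p of 0.0597 and 0.0579. Of the causes of these changes, none was tested.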
